A study of Mus musculus with 6 samples.

Results

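The 10 genes described here encode cyclins and cyclin-dependent kinases (CDKs) of the cell cycle: the cyclins Ccnd2, Ccnd3, Ccne1, Ccne2, Ccna2, Ccnb1 and Ccnb2 and the kinases Cdk1, Cdk4 and Cdk6. They were found by matching Ensembl mouse gene IDs to these symbols, which gave 10 of the 52856 rows of the count table, and all 10 were among the 14387 rows that passed the low-count filter. The sequenced RNA came from splenic CD4+ T cells that had been taken from C57BL/6 mice at 8 weeks of age and activated through CD3 and CD28 with antibodies over 48 hours in culture. There were 3 libraries from wild type mice (WT) and 3 from miPEP31-/- mice (KO), and the stimulation was the same in both groups. miPEP31 is a small peptide read from the precursor transcript of miR-31, a microRNA. The labels do not say whether the libraries of a group came from separate mice, so p-values measure the spread between these libraries, which may be technical. No unstimulated cells were compared here.

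A cyclin is the regulatory subunit that switches on its CDK, and successive cyclins carry the cell from one phase to the next. In T cells that leave rest after receptor stimulation, D type cyclins with CDK4 or CDK6 start the phosphorylation of the retinoblastoma protein, which frees E2F factors to transcribe E type and A type cyclins. Cyclin E acts with CDK2 at the entry to S phase, cyclin A during S phase and G2, and B type cyclins with CDK1 drive mitosis. E type, A type and B type transcripts also rise and fall within each cycle, so in bulk RNA their levels reflect both how cells are spread over the phases and how much RNA each cell holds, and fewer cells of a phase cannot be told apart from less RNA per cell.

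Library totals were 22865487 to 26295776 counts, and each member had between 564 and 26848 counts in a library. Mir31 itself had 0 counts in each of the 6 libraries, which leaves the genotype labels unchecked by this table. Defining markers of the labelled cell type were present: Cd3d, Cd3e, Cd3g, Cd4, Trac, Cd2 and Cd28 summed to 1680 to 1792 CPM (counts scaled to the library's size) in WT and 1240 to 1404 in KO. Of these 7, 6 were lower in KO without overlap and 0 higher. Of all tested genes 59.1% did not overlap in either direction. The share lower without overlap is only a part of that and was not counted. B cell markers summed to 50.8 to 75.8 CPM in WT and 56.6 to 103 in KO, CD8 T cell markers to 12.5 to 15.8 and 15.9 to 36.9, and NK cell markers to 4.96 to 7.45 and 10.3 to 21.8, the latter carried by Eomes. Macrophage and monocyte markers summed to 4.32 to 7.72 CPM in WT and 3.45 to 5.78 in KO, with Adgre1 at 0 throughout. Dendritic cell markers summed to 6.25 to 7.58 CPM in WT and 11.9 to 13.1 in KO, carried by Zbtb46 (means 4.54 and 9.36), with Clec9a at 0 throughout. Neutrophil and erythroid markers stayed under 2 CPM, with S100a8 and S100a9 at 0. The part of these other cells in the results below was not tested.

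Ccnd2, Ccne1 and Ccne2 rose, Ccna2, Ccnb2 and Cdk4 fell, and Ccnd3, Cdk6, Ccnb1 and Cdk1 did not pass the test (edgeR quasi-likelihood test, Benjamini-Hochberg adjusted p under 0.05 over all 14387 genes). Thus 6 of the 10 genes were called, beside 47.3% of all genes tested; 3 of 10 were higher, beside 25.1%, and 3 of 10 lower, beside 22.2%. The libraries of the groups did not overlap for the same 6 genes, beside 59.1% of all genes. The share of the members that changed was therefore near that of the whole transcriptome, and what is described below is which cyclin moved in which direction. The changes were also moderate: 21.4% of all tested genes had a larger absolute log2 fold change than Ccne1, the member that changed most.

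**Figure D1:**
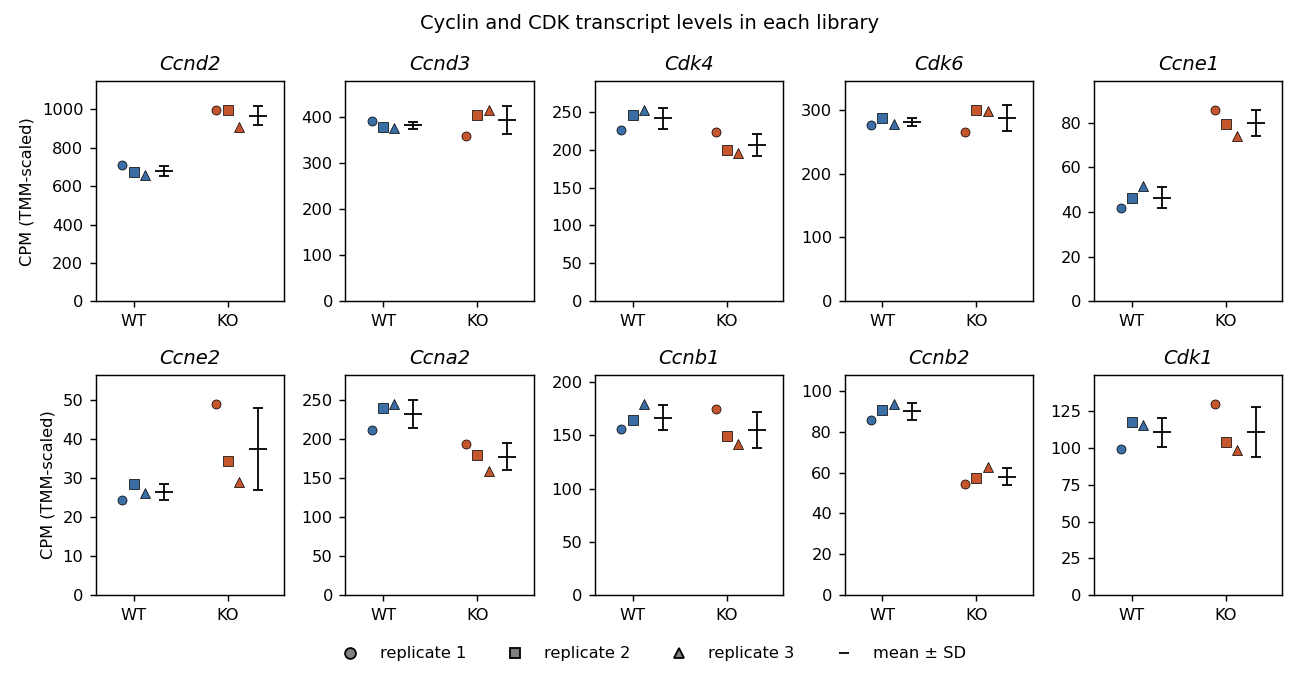
Level of each cyclin and CDK gene in CPM (vertical axis, from 0) in the 3 WT (blue) and 3 KO (orange) libraries, with the mean and SD beside the points. Ccnd2 and Ccne1 lie higher and Ccnb2 lower in every KO library, whereas the groups overlap for Ccnd3, Cdk6, Ccnb1 and Cdk1.

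Ccnd2 (ENSMUSG00000000184, chromosome 6, 127125162 to 127152193, GRCm38) encodes cyclin D2, the D type cyclin that lymphocytes induce on stimulation. Its level was 709, 674 and 658 CPM in WT replicates 1, 2 and 3 and 997, 998 and 909 CPM in KO replicates 1, 2 and 3. The lowest KO library lay well above the highest WT library. Ccnd2 rose 1.42-fold, from 680.4 ± 26.2 to 968 ± 51.2 CPM (SD, n = 3 each; log2 fold change 0.51, SE 0.06, edgeR adjusted p = 4.04e-04). Ccnd3 (ENSMUSG00000034165, chromosome 17, 47505051 to 47599691) encodes cyclin D3, needed for the expansion of immature T cells. Its level was 392, 379 and 377 CPM in WT and 360.0, 406 and 417 CPM in KO. KO replicate 1 was below all WT libraries and the other two KO libraries above them, and the log2 fold change of 0.04 (SE 0.07) did not pass (edgeR adjusted p = 0.640). The remaining D type gene, Ccnd1, had between 6 and 15 counts in a library, at most 0.653 CPM.

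Cdk4 (ENSMUSG00000006728, chromosome 10, 127063534 to 127067920) and Cdk6 (ENSMUSG00000040274, chromosome 5, 3341485 to 3531008) encode the kinases that D type cyclins activate. Cdk4 was at 226, 246 and 253 CPM in WT and 223, 199.5 and 196 CPM in KO. KO replicate 1 stood just under the lowest WT library, so the groups were separate by a narrow margin. Cdk4 fell by 0.23 on the log2 scale (SE 0.07, edgeR adjusted p = 0.0331), from 241 ± 14.02 to 206 ± 14.4 CPM (SD, n = 3 each). This call was lost without WT replicate 2 (edgeR adjusted p = 0.110), WT replicate 3 (adjusted p = 0.116) or KO replicate 2 (adjusted p = 0.0948), and with plain library sizes (adjusted p = 0.0617). Of the exon bases of Cdk4, 19.7% (641 bases) are shared with Tspan31, a tetraspanin gene on the opposite strand, whose level went from 38.2 CPM in WT to 91.6 in KO (log2 fold change 1.26, edgeR adjusted p = 3.85e-05). No source used here says whether reads were counted by strand, so reads of the shared bases cannot be assigned. Cdk6 was at 276, 287 and 277 CPM in WT and 264, 299.8 and 297 CPM in KO. Like Ccnd3, it was lowest in KO replicate 1 and higher than in WT in the other two KO libraries, and it did not pass (log2 fold change 0.04, SE 0.07, edgeR adjusted p = 0.681).

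The E type cyclins bind CDK2 at the G1/S transition. Ccne1 (ENSMUSG00000002068, chromosome 7, 38097984 to 38107534), which encodes cyclin E1, was at 41.8, 46.2 and 51.5 CPM in WT and at 85.8, 79.6 and 74.2 CPM in KO. Every KO library was above every WT library. Ccne1 rose 1.72-fold, from 46.5 ± 4.89 to 79.9 ± 5.83 CPM (SD, n = 3 each; log2 fold change 0.78, SE 0.09, edgeR adjusted p = 3.67e-04). Ccne2 (ENSMUSG00000028212, chromosome 4, 11191351 to 11204779), the gene of cyclin E2, was at 24.4, 28.5 and 26.1 CPM in WT and at 49.1, 34.3 and 28.9 CPM in KO. KO replicate 1 stood far above the rest, while KO replicate 3 exceeded the highest WT library by little. Its log2 fold change was 0.51 with an SE of 0.18, at the edge of the threshold (edgeR adjusted p = 0.0465), and without KO replicate 1 it was 0.26 (edgeR adjusted p = 0.0571). The Ccne2 call was lost under 11 of 14 alternatives, among them limma-voom (adjusted p = 0.0647) and every omission of a library other than KO replicate 3 (edgeR adjusted p 0.0571 to 0.151). Ccne2 shares 17.4% of its exon bases with Ints8 on the opposite strand, an Integrator subunit gene. Ints8 was at 45.6, 50.4 and 52.9 CPM in WT and 91.0, 75.9 and 72.4 CPM in KO, also highest in KO replicate 1, and rose by 0.68 (SE 0.10, edgeR adjusted p = 0.00101). The part of Ints8 reads in the Ccne2 counts was not tested.

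Ccna2 (ENSMUSG00000027715, chromosome 3, 36564865 to 36572150) encodes cyclin A2, the A type cyclin of S phase and G2. Its level was 211, 240.0 and 246 CPM in WT and 194, 179 and 159.5 CPM in KO. All KO libraries were below all WT libraries, with KO replicate 1 nearest to them. Ccna2 was 1.31-fold lower in KO, at 178 ± 17.3 CPM against 232 ± 18.3 (SD, n = 3 each; log2 fold change -0.39, SE 0.09, edgeR adjusted p = 0.00874). It shares 12.5% of its exon bases with Exosc9, a subunit gene of the RNA exosome, which did not pass (41.8 and 44.8 CPM, edgeR adjusted p = 0.353).

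The genes of the mitotic kinase did not move as one. Ccnb2 (ENSMUSG00000032218, chromosome 9, 70407692 to 70421547) encodes cyclin B2, a B type cyclin found mainly at the Golgi apparatus. It was at 85.5, 90.5 and 93.8 CPM in WT and 54.3, 57.5 and 62.5 CPM in KO, a gap wider than the spread of either group. Ccnb2 was 1.55-fold lower, from 89.9 ± 4.16 to 58.1 ± 4.16 CPM (SD, n = 3 each; log2 fold change -0.63, SE 0.07, edgeR adjusted p = 3.23e-04). A processed pseudogene, Ccnb2-ps, had at most 1.82 CPM. Ccnb1 (ENSMUSG00000041431, chromosome 13, 100778650 to 100786570), the gene of cyclin B1, which is required for mitotic entry, was at 156, 164 and 179.7 CPM in WT and 174, 149 and 141 CPM in KO. KO replicate 1 lay within the WT range and the other two KO libraries below it, and Ccnb1 did not pass (log2 fold change -0.10, SE 0.09, edgeR adjusted p = 0.384). Without KO replicate 1 it was called lower, with a log2 fold change of -0.20 (edgeR adjusted p = 0.0456). Cdk1 (ENSMUSG00000019942, chromosome 10, 69335146 to 69352938), the kinase that B type cyclins activate, was at 99.7, 117 and 116 CPM in WT and 130.4, 104 and 98.7 CPM in KO. Its highest and its lowest library were both KO, the means were 111 and 111 CPM, and the log2 fold change was 0.00 (SE 0.11, edgeR adjusted p = 0.986). The sign of that value differed among alternatives.

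**Figure D2:**
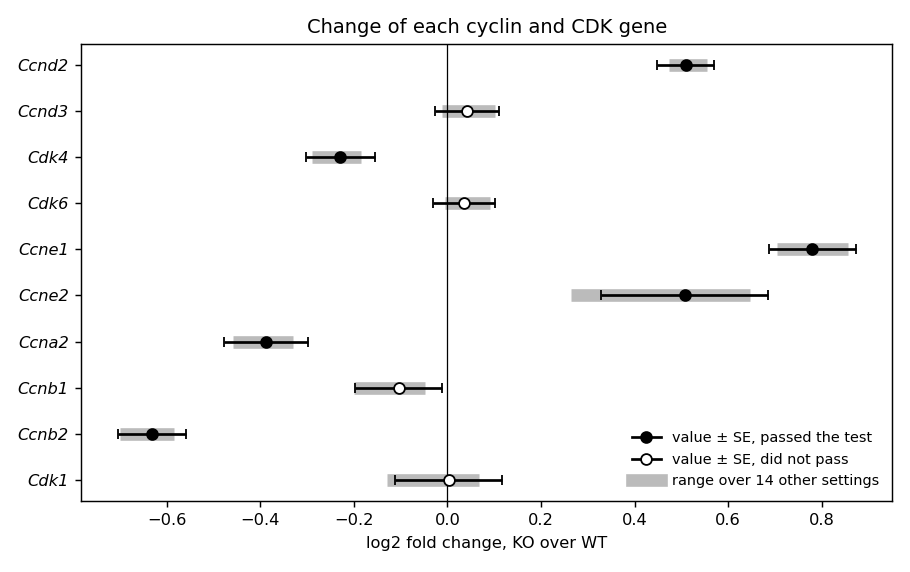
Log2 fold change of KO over WT (horizontal axis) for each gene with its SE, filled where it passed the test, with a grey band for the range over 14 other settings. The bands of Ccnd2 (0.47 to 0.55), Ccne1 (0.70 to 0.86), Ccna2 (-0.46 to -0.33) and Ccnb2 (-0.70 to -0.59) stay on one side of 0, and these genes kept their call throughout. So do the bands of Ccne2 (0.26 to 0.65), the widest among the called genes, Cdk4 (-0.29 to -0.18) and Ccnb1 (-0.20 to -0.05). The calls of Ccne2 and Cdk4 were lost in some settings, and Ccnb1 did not pass.

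Promoters of late cell cycle genes are known for CCAAT boxes, bound by NF-Y, and for the cell cycle genes homology region (CHR), bound by complexes that repress the gene at rest and activate it towards mitosis, while E2F sites mark genes of the G1/S transition. Because Ccnb2 fell while Ccnb1 and Cdk1 did not pass, and Ccne1 rose, their promoter windows are shown side by side from RefSeq (GRCm38.p6), 5′ to 3′ on the strand of each gene, ending at most 30 bases past the earliest annotated start. Capitals mark matches on either strand to a CHR, searched as TTTGAA and, in its other form, as TTCGAA, to a CCAAT box, searched by the letters of its name, or to an E2F core. The core was searched as TTCCCGC, then with a changed middle as TTCGCGC, further as TTGCCGC and finally as TTGGCGC. The windows are chr9:70421525-70421804 for Ccnb2, chr13:100786541-100786736 for Ccnb1, chr10:69352909-69353162 for Cdk1 and chr7:38107505-38107740 for Ccne1, all on the minus strand.
Ccnb2: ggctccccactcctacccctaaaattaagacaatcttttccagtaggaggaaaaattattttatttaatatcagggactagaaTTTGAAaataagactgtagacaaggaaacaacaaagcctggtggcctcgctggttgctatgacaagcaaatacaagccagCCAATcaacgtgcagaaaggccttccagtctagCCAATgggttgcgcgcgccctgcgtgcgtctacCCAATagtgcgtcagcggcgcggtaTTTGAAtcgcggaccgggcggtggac
Ccnb1: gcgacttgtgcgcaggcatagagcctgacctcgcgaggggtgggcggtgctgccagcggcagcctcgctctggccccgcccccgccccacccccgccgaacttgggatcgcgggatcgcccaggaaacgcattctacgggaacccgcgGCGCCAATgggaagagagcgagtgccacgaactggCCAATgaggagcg
Cdk1: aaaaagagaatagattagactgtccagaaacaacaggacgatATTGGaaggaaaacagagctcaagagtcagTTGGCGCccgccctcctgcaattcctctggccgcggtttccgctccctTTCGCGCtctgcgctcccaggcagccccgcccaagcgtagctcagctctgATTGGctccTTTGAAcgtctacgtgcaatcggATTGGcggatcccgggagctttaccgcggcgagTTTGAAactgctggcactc
Ccne1: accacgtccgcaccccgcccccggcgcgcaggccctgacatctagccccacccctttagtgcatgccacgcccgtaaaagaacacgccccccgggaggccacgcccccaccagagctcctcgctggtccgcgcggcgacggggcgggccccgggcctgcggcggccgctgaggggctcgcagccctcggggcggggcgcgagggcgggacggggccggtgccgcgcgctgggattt

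The full windows have 300 bases, from 250 before to 50 after the RefSeq start. In its window Ccnb2 held 3 CCAAT boxes and 2 CHR matches, of which 1 lay at bases 5 to 10 counted from the RefSeq start. Cdk1 held 3 CCAAT boxes on the opposite strand, 2 CHR matches and 2 E2F cores. Ccnb1 held 2 CCAAT boxes and 1 E2F core, which overlaps the first of these boxes, and no CHR match. The earliest annotated start lies 166 bases into the Ccnb1 window and 224 bases into the Cdk1 window. The second CCAAT box of Ccnb1 and the second CHR match of Cdk1 lie past these starts. The window of Ccne1 held no match to these letters, nor did those of Cdk4 and Cdk6, and of the 2 windows of Ccnd3 one held 1 CCAAT box. The Cdk6 window begins at base 3343643, whereas the annotated gene begins at 3341485. The Ccnd3 window with the box begins at 47593217, whereas the gene begins at 47505051. Both windows therefore lie inside the annotated gene, past its earliest start. Among all 32851 windows of the table, 37.4% held a CCAAT box, 19.2% a CHR match and 9.57% an E2F core. Ccnb2, which fell, and Cdk1, which did not pass, both held CCAAT boxes and CHR matches. Any part of these motifs in the changes was not tested. Windows were matched for 7 of the 10 members; Ccnd2, Ccne2 and Ccna2 are named only.

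**Figure D3:**
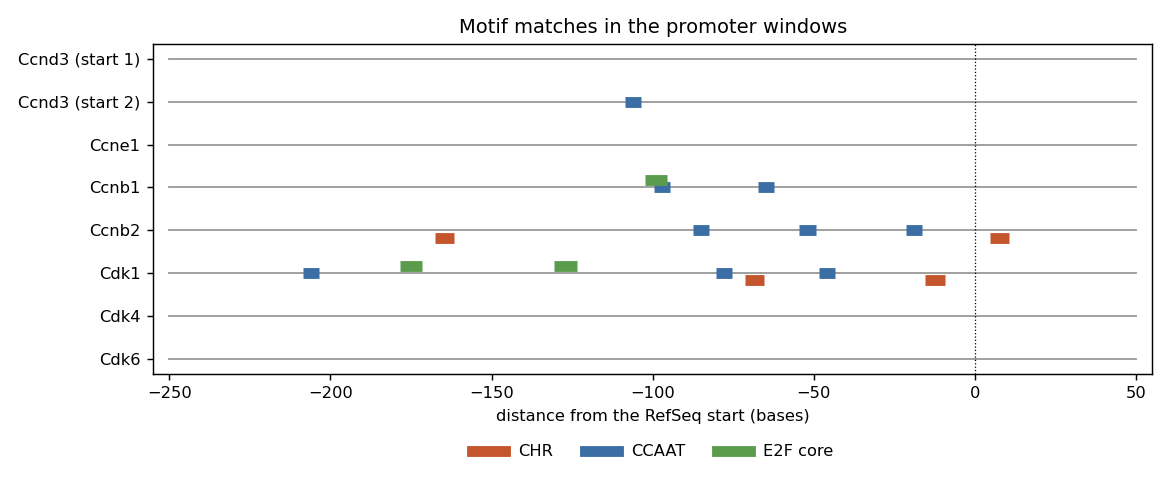
Matches to the CHR (orange), the CCAAT box (blue) and the E2F core (green) along the RefSeq promoter windows of 7 members (8 windows), by distance from the start in bases. The windows of Ccnb1, Ccnb2 and Cdk1 hold 2 or 3 CCAAT boxes each, and those of Ccne1, Cdk4, Cdk6 and one start of Ccnd3 hold no match.

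By coefficient of variation, the KO libraries differed among themselves more than the WT libraries for every member except Ccne1. This was not particular to the members. Over all tested genes, chi-square per degree of freedom was 14.5 to 39.0 between pairs of KO libraries and 4.97 to 8.21 between pairs of WT libraries. KO replicate 1 was the highest KO library for 6 members (Ccne1, Ccne2, Ccna2, Ccnb1, Cdk1 and Cdk4) and the lowest for 3 (Ccnd3, Ccnb2 and Cdk6). KO replicate 3 was the lowest for 7 members. The coefficient of variation was 27.8% in KO and 7.74% in WT for Ccne2, 15.2% and 8.81% for Cdk1, and 7.63% and 2.18% for Ccnd3. For Ccnb2 it was 7.17% and 4.63%, while for Ccne1 it was lower in KO, at 7.29% and 10.5%. WT replicate 1 was the lowest WT library for 8 members. The spread of these libraries was not tested.

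Levels of different genes were compared as CPM per kb of exon. In WT, Cdk4 (74.3 ± 4.32 CPM per kb) and Ccnd2 (72.3 ± 2.78) were the highest and their ranges overlapped. Ccnb2 (58.7 ± 2.72) and Ccna2 (56.9 ± 4.49) followed, also with overlapping ranges, then Ccnd3 (43.6 ± 0.9498) and Ccnb1 (39.5 ± 2.86), whose ranges did not overlap. Cdk1 (22.5 ± 1.98) and Cdk6 (20.0 ± 0.458) overlapped, Ccne1 (17.5 ± 1.84) lay under both, and Ccne2 (7.54 ± 0.584) was the lowest member (SD, n = 3 each). In KO, Ccnd2 alone led at 103 ± 5.44 CPM per kb, above Cdk4 at 63.4 ± 4.44. Ccnb2 moved from rank 3 to rank 5 at 37.9 ± 2.72 CPM per kb, within the range of Ccnb1 (36.7 ± 4.08), and Ccne1, at 30.01 ± 2.19, stood above Cdk1 (22.5 ± 3.42) without overlap. The exon lengths are those of all annotated exons together and may differ from the transcripts these cells use. The order of the genes may therefore depend on them. Comparisons of a single gene between libraries do not, whereas the values of the shares and ratios below do.

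The make-up of the pairs was also compared; these shares and ratios are descriptions without a test. Ccnd2 made up 62.7%, 62.4% and 61.9% of the D type sum in WT and 72.0%, 69.6% and 67.0% in KO, with Ccnd1 under 0.1% in every library. Ccnb2 made up 60.2%, 60.3% and 59.0% of the B type sum in WT and 46.2%, 51.5% and 54.9% in KO. The size of this share rests on the exon lengths used, 1531 bases for Ccnb2 and 4217 for Ccnb1. By CPM, not divided by length, Ccnb1 was above Ccnb2 in every library (means 167 and 89.9 in WT, 155 and 58.1 in KO). The Ccnd2 and Ccnb2 shares were separate between the groups and more widely spread in KO. Ccne1 made up 68.1% to 72.1% of the E type sum in WT and 69.7% to 77.1% in KO, and Cdk4 77.9% to 79.7% and 73.9% to 78.4% of the sum of Cdk4 and Cdk6, so that for these pairs the groups overlapped. The ratio of E type cyclins to Ccna2 was 0.438, 0.434 and 0.446 in WT and 0.974, 0.905 and 0.925 in KO. It averaged 0.440 ± 0.00610 in WT and 0.935 ± 0.0353 in KO (SD, n = 3 each), although its parts varied between the KO libraries. Because Ccne1 and Ccne2 were called higher and Ccna2 lower, a gap follows from these calls and adds no evidence to them. Other ratios were more widely spread in KO. E type over B type cyclins was 0.244 to 0.261 in WT and 0.486 to 0.603 in KO. Ccnd2 over Ccnb2 was 1.14 to 1.35 in WT and 2.37 to 2.99 in KO. The Ccne2 part of the E type ratios carries the limit given for Ints8. The levels of Cdk4 per kb and its share carry the limit given for Tspan31.

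**Figure D4:**
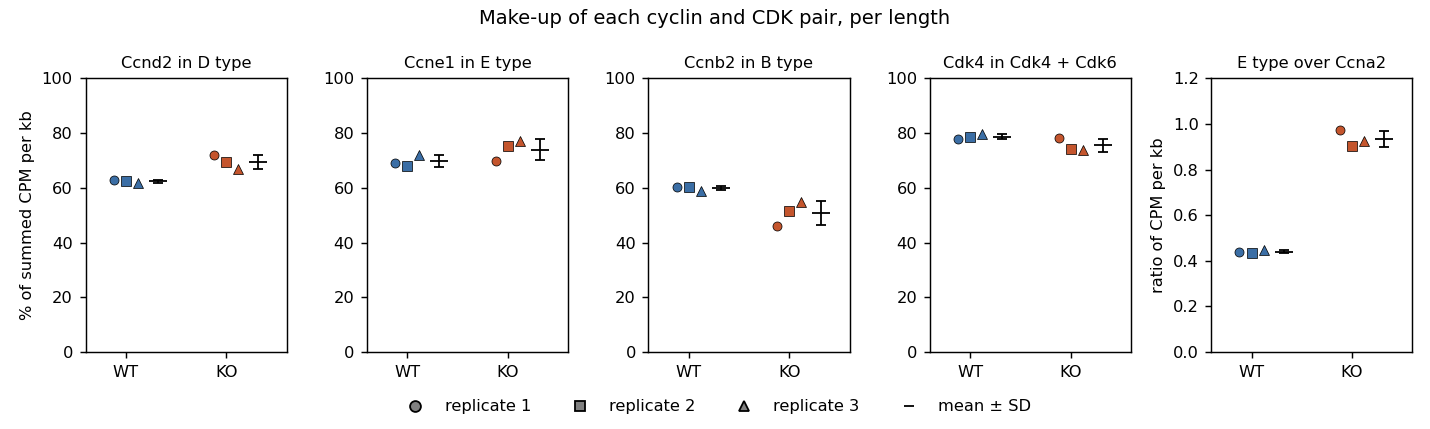
Share of Ccnd2 among D type cyclins, of Ccne1 among E type, of Ccnb2 among B type and of Cdk4 in Cdk4 plus Cdk6, in percent of summed CPM per kb, and the ratio of E type cyclins to Ccna2, in each library with mean and SD. The ratio lies between 0.434 and 0.446 in WT and between 0.905 and 0.974 in KO.

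The regulators of these cyclins and kinases moved in both directions as well. Of 50 listed genes 48 were tested, of which 10 were higher and 15 lower, and 23 did not pass; their median log2 fold change was -0.04, beside 0.01 over all genes tested. The called share was 52.1%, near the 47.3% of all genes tested (25.1% higher and 22.2% lower), so the counts of the lists below are given as a description. The number higher was 5 without WT replicate 1, WT replicate 2 or KO replicate 2, and the number lower was 9 without WT replicate 3. Ccna1 and Ccnb3, the germ line A and B type cyclins, had 0 counts in all 6 libraries. Of the other cyclins and CDKs, 3 of 6 tested were lower and 0 higher at this threshold (median -0.13). Cdk2, the kinase partner of cyclins E and A, was at 106, 106 and 108 CPM in WT and 88.9, 88.6 and 86.5 CPM in KO, so the groups were separate, and it fell by 0.28 (SE 0.05, edgeR adjusted p = 0.00348). Ccnf, the substrate receptor of a ubiquitin ligase of G2, fell by 0.25 (SE 0.07) and Mnat1, an assembly factor of the CDK-activating kinase, by 0.24 (SE 0.08). The Ccnf call was lost without WT replicate 2, WT replicate 3 or KO replicate 2 (edgeR adjusted p 0.0613 to 0.0778), and that of Mnat1 without any one library other than KO replicate 1 (adjusted p 0.0630 to 0.0974), with plain library sizes (adjusted p = 0.0688) and when no gene was filtered out (adjusted p = 0.0551). Cdk7 and Ccnh, the other subunits of that kinase, were at -0.03 and -0.03 and did not pass.

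Among 6 CDK activators and adaptors, 1 was lower and 5 did not pass (median -0.06). Cdc25b, the phosphatase that starts CDK1 activation before mitosis, was at 106, 115 and 123 CPM in WT and 53.4, 56.3 and 61.0 CPM in KO. Every KO library was far below every WT library, and Cdc25b fell by 1.01 (SE 0.08, edgeR adjusted p = 5.50e-05). Its paralogs Cdc25a, which acts at the G1/S transition as well, and Cdc25c had log2 fold changes of -0.06 and -0.06 and did not pass (edgeR adjusted p = 0.682 and 0.619).

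Of 10 CDK inhibitors and inhibitory kinases, 2 were higher, 3 lower and 5 did not pass (median -0.00). Cdkn1b, which encodes p27, the inhibitor that holds resting T cells out of cycle, was at 143, 137 and 119.7 CPM in WT and 65.5, 83.1 and 98.8 CPM in KO. It fell by 0.69 (SE 0.14, edgeR adjusted p = 0.00492), lowest in KO replicate 1. Cdkn2c, an inhibitor of CDK4 and CDK6, fell by 0.33 (SE 0.10), a call lost without WT replicate 2, WT replicate 3 or KO replicate 2 (edgeR adjusted p 0.0604 to 0.0911). Cdkn2b, another inhibitor of these kinases, had 2, 2 and 0 counts in WT and 34, 25 and 37 in KO, and rose by 4.41 on the log2 scale (SE 0.61, edgeR adjusted p = 6.79e-04). Its neighbour Cdkn2a had 0, 1 and 5 counts in WT and 19, 27 and 39 in KO, and rose by 3.68 (SE 0.73, edgeR adjusted p = 0.00405), or by 5.46 without WT replicate 3. Both stayed under 2 CPM in KO, against 206 CPM for Cdk4.

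In the RB and E2F list 4 of 13 were higher and 4 lower (median -0.01). Rbl1, which encodes the pocket protein p107, rose by 0.52 (SE 0.07, edgeR adjusted p = 6.57e-04), from 89.7 ± 5.16 to 128 ± 6.85 CPM (SD, n = 3 each). The activator genes E2f1 and E2f2 fell by 0.42 (SE 0.07) and 0.50 (SE 0.06), and Tfdp2, a dimer partner of the E2F factors, by 0.84 (SE 0.07), from 43.2 ± 1.77 to 24.1 ± 1.09 CPM. E2f3, a further activator gene, went the other way and was called higher at the edge of the threshold (log2 fold change 0.30, SE 0.11, edgeR adjusted p = 0.0474). The E2f3 call was lost under 10 of 14 alternatives, among them the omission of any one library other than KO replicate 3 (edgeR adjusted p 0.0814 to 0.161), and its value dropped to 0.18 when KO replicate 1 was omitted. In the cyclin destruction list 2 of 7 were higher and 3 lower (median 0.00). Cdc20, which directs the anaphase-promoting complex to B type cyclins, was at 134, 136 and 154 CPM in WT and 96.2, 90.5 and 79.6 CPM in KO and fell by 0.67 (SE 0.09, edgeR adjusted p = 6.22e-04). Fzr1, the activator of that complex after mitosis, fell by 0.28 (SE 0.09), and Ube2c, its ubiquitin-conjugating enzyme, by 0.21 (SE 0.05). Ube2s, the other ubiquitin-conjugating enzyme of that complex, was called higher (log2 fold change 0.23, SE 0.07, edgeR adjusted p = 0.0320), a call lost without WT replicate 1, WT replicate 2, KO replicate 1 or KO replicate 2 (adjusted p 0.0521 to 0.127). The Fzr1 call was lost without WT replicate 1, WT replicate 3 or KO replicate 2 (edgeR adjusted p 0.0617 to 0.108) and with plain library sizes (adjusted p = 0.0613), and the Ube2c call without WT replicate 3 (adjusted p = 0.0627). Fbxw7, which marks cyclin E for destruction, rose by 0.49 (SE 0.10, edgeR adjusted p = 0.00526). In the list of G2/M transcription 2 of 6 were higher and 1 lower (median 0.23). Foxm1, a transcription factor of G2 and mitosis, fell by 0.20 (SE 0.06), whereas Lin54, the subunit of the MuvB complex that binds the CHR, rose by 0.37 (SE 0.07) and Lin9, another subunit, by 0.38 (SE 0.13). The Foxm1 call was lost without any one WT library (edgeR adjusted p 0.0611 to 0.0960) and with plain library sizes (adjusted p = 0.0758). The Lin9 call was lost without any one library other than KO replicate 3 (edgeR adjusted p 0.0521 to 0.139; the log2 fold change was 0.21 without KO replicate 1), with both RLE and upper-quartile scaling (adjusted p up to 0.0571) and with limma-voom (adjusted p = 0.0619).

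**Figure D5:**
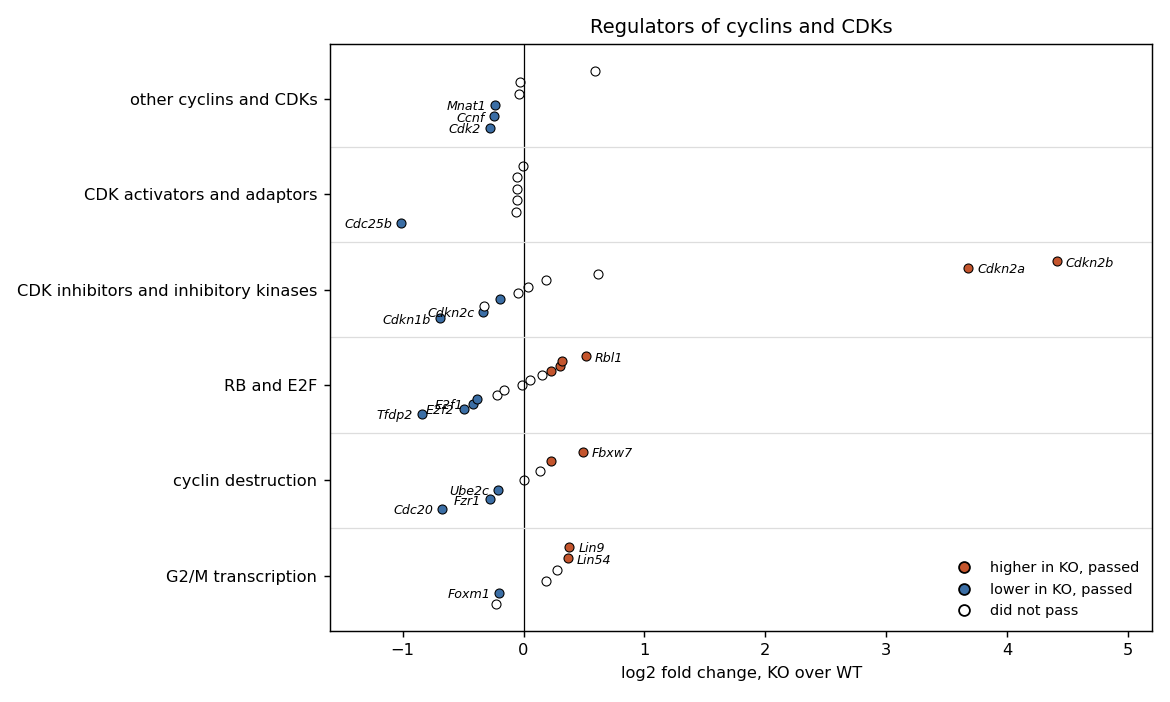
Log2 fold change of KO over WT (horizontal axis) for each tested gene of the 6 regulator lists, orange where higher, blue where lower and white where it did not pass. Cdkn2a and Cdkn2b lie apart at 3.68 and 4.41, Cdc25b is the lowest at -1.01, and most others lie within 1 of 0.

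For each member that passed the test, the genes with the most similar pattern were sought by Pearson correlation of log2(CPM + 0.5) over the 6 libraries among 8999 genes with a mean of at least 10 CPM. The nearest genes were Acsl4 (r = 0.999) and Cox14 (r = 0.999) for Ccnd2, and Lats1 (r = 1.000) and Icam1 (r = 0.998) for Ccne1. They were Nmd3 and Poc5 for Ccne2 (r = 0.998 and 0.997), Ncapd3 and Agfg1 for Ccna2 (r = 0.994 and 0.994), Il6ra and Zfp52 for Ccnb2 (r = 0.999 and 0.998), and Brca1 and Kif20a for Cdk4 (r = 0.998 and 0.996). The 6 points share the difference between the groups, and 999 genes reached r = 0.95 with Ccnd2 and 1018 with Ccne1, so these correlations are descriptions. For the other members 816 genes reached it with Ccnb2, 184 with Ccna2, 146 with Ccne2 and 111 with Cdk4.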

How the data were processed

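The deposited values are the authors' estimated counts per gene; of those above 0, 72.2% were whole numbers. Bowtie 0.12.2 and the build mm8 appear, with no role stated, in the submitters' processing notes. No source used here gives the counting program, its annotation or its strand setting. All 6 columns were matched to labelled samples. Symbols, exon lengths and gene coordinates were taken from GENCODE M21 (GRCm38) by gene ID, which gave a symbol to 51633 of 51912 Ensembl rows; the other 944 rows (MSTRG IDs, 0.903% to 1.56% of counts) stayed in library sizes and tests. The deposited table of 30 genes holds no member and was not used.

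Counts were rounded, filtered with filterByExpr (minimum count 10; 99.9% of counts kept), scaled with TMM and tested by the robust quasi-likelihood method of edgeR 4.0.16 (R 4.3.3) with genotype as the sole term. CPM are per TMM-scaled library. SE is the unshrunk log2 fold change over the root of F. On data simulated for KO against WT with 14387 genes, edgeR recovered 62% of genes changed 1.5-fold and 88% of those changed 2-fold. Of its 187 calls there, 6.95% were of unchanged genes. Only well-covered genes were changed in the simulation, and far fewer than the 6806 called in the data, so these rates may not hold for the data. DESeq2 1.42.0 and limma 3.58.1 (voom) were alternatives, beside other scalings, filters, a replicate block and omission of each library. Libraries of a group differed beyond counting noise (chi-square per degree of freedom 4.97 to 8.21 in WT and 14.5 to 39.0 in KO), and all were kept as replicates. This spread does not show that they came from separate mice.

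The members, lists, motifs and named genes were chosen with earlier results of these data known. All members were named; from each list the up to 4 called genes with the smallest p, or 2 where none was called; and for each called member the 2 genes most correlated with it. Paralogs, Ccnd1, overlapping genes and list genes given beside these were chosen after their values were seen. The 30-gene table, protein sequences and reads were not used.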

Additional observations from a re-analysis of the deposited data

How the results depend on the processing

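Over the 14 alternatives, Ccnd2, Ccne1, Ccna2 and Ccnb2 kept direction and call, as did 12 of the 19 list genes named by rule (Cdkn2a and Cdkn2b were not tested under the filter of at least 1 CPM in 3 libraries). Members called higher were 2 or 3 and members called lower 2 to 4. List genes called higher were 6 with RLE scaling, 6 with upper-quartile scaling and 5 to 8 with one library left out, beside 10; list genes called lower were 9 to 15 with one library left out, beside 15. With a replicate block the list counts were 5 and 9, and the calls of Ccne2 (edgeR adjusted p = 0.0729) and Cdk4 (adjusted p = 0.0911) were lost. The replicate numbers pair no libraries in the labels, and deviations of same-numbered libraries did not correlate (0.00, -0.01 and -0.02). Of the 4 members that did not pass, the log2 fold changes of Cdk1, Ccnd3 and Cdk6 crossed 0, and Ccnb1 stayed below 0 (-0.199 to -0.0490). Cdk1, at 0.0029, was at -0.0148 with RLE scaling, -0.0352 with upper-quartile scaling, -0.0132 without the low-count filter, -0.00544 with the filter of at least 1 CPM, -0.0148 with DESeq2, -0.00426 with limma-voom, -0.00418 with the replicate block, and -0.130 to 0.0669 with one library left out. With one library left out Ccnd3 was at -0.0122 to 0.101 and Cdk6 at -0.00466 to 0.0905. Upper-quartile scaling gave 3266 genes higher and 3473 lower among all genes, beside 3609 and 3197, and plain library sizes 4088 and 2840. The causes were not tested. At this depth each member rests on at least 564 counts a library. How much of each member's spread between 3 libraries came from counting was not tested.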
